A study of Mus musculus with 6 samples.

Results

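Semaphorins, plexins and neuropilins were compared between sorted endothelial cells of 4T1 tumours that had taken up nanoparticles and those that had not. The family was taken by name from the authors' deposited table as every semaphorin of classes 3 to 7, every plexin, Nrp1 and Nrp2. Of 31 such mouse genes the table holds 30, made up of 19 semaphorins, 9 plexins and 2 neuropilins, among 26071 genes in all. Sema4f had 60 counts over the 6 libraries and is not in the table, and was not analysed here.

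Semaphorins are guidance ligands that are secreted (class 3), span the membrane (classes 4, 5 and 6) or are held on the surface by a lipid anchor (Sema7a). Plexins are their receptors, and the cytoplasmic part of a plexin switches off small GTPases of the Ras and Rap type. Neuropilins lack such a domain and act as co-receptors for most class 3 semaphorins and for VEGF. In vessels the system is best known for limiting or steering endothelial sprouting, and Sema3e is unusual among class 3 ligands in binding Plxnd1 without a neuropilin.

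All 6 libraries came from 4T1 mammary tumours, grown for 2 weeks from a mouse mammary carcinoma line that was injected into the fat pad. The hosts were female Balb/c mice aged 10 weeks at harvest. All mice had received 1E12 gold nanoparticles of 50 nm, coated with 5 kDa polyethylene glycol and carrying Cy5, by tail vein 1 hour before harvest. CD45-depleted, CD31-enriched cells were sorted into those carrying nanoparticles (NP+) and those without (NP-), and each of 3 tumours (labelled MET-106, MET-107 and MET-108) gave 1 library of either kind. Values per library are listed in that order of tumours. Both fractions come from treated mice, so the contrast is between cells of 1 tumour and not between treated and untreated animals. Sequencing gave 41830256 to 58089600 gene counts in NP+ and 20856410 to 44694267 in NP- libraries.

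The sorted cells carried endothelial transcripts, and the NP- libraries also carried transcripts of other cells. Summed over 12 pan-endothelial markers, levels ran from 12566 to 15169 CPM in NP+ and from 8024 to 10913 CPM in NP-, where CPM are counts scaled to the size of the library by TMM. All 12 had a log2 fold change above 0 (NP+ over NP-), with a median of 0.43. The median was -0.29 for all tested genes and 0.24 for those averaging at least 5 CPM. At an unadjusted p under 0.05 (edgeR) 5 of the 12 were higher, against 8.01% of all tested genes. With the tumour as a block 3 were, against 7.85%, and the part of this difference in the results on the family was not tested. Summed levels of 7 fibroblast markers ran from 9.61 to 24.9 CPM in NP+, against 1803, 74.0 and 50.9 CPM in the NP- libraries. Pericyte markers (7 genes) ran from 15.9 to 60.01 CPM in NP+, against 759.9, 216 and 75.6 CPM in NP-, and epithelial markers (7 genes) from 7.85 to 11.7 CPM, against 566, 30.1 and 14.6 CPM. Macrophage markers (9 genes) ran from 17.1 to 26.8 CPM in NP+, against 122, 69.2 and 42.2 CPM in NP-, and lymphatic endothelial markers (7 genes) from 399 to 457 CPM, against 255, 1761 and 733 CPM. Lymphocyte markers (7 genes) ran from 3.17 to 5.11 CPM in NP+ and from 4.64 to 33.3 CPM in NP-, and Schwann cell and neural markers (7 genes) from 7.19 to 11.6 CPM in NP+ and from 13.1 to 18.8 CPM in NP-. All tested fibroblast, pericyte and epithelial markers (7, 7 and 5 genes) were lower in NP+ at an unadjusted p under 0.05 (edgeR), against 15.4% of all tested genes. With the tumour as a block 7, 7 and 2 were, against 14.6%, and their part in the results on the family was not tested. All members of the endothelial, fibroblast, pericyte and macrophage lists had counts in every library, while the epithelial keratins Krt5 and Krt19 were at 0 in some. The NP- library of MET-106 thus stands apart in its fibroblast, pericyte and epithelial transcripts, and its log2 CPM correlated more with the NP+ libraries (0.945 to 0.951) than with the other NP- libraries (0.838 and 0.876). Each result below is therefore also given without it where its call changes. In such bulk samples, fewer cells of a type and less RNA per cell cannot be told apart.

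Among abundant family members, the membrane ligands Sema7a, Sema6b and Sema6d averaged 2.67 to 3.22 times as high in NP+ as in NP- cells, and the receptors Plxnd1 and Plxnb2 and the secreted ligand Sema3f stood higher by less. Several rare members, among them Sema3e, Sema5a, Sema4d and Plxna3, were lower in CPM in NP+ cells, at under 10 CPM in every library. Relative to a background of counts described below, the fractions overlapped for each of these named genes. The neuropilins and Sema6a, all abundant, had log2 fold changes between 0.01 and 0.33.

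With all 6 libraries, 0 of 30 members passed an adjusted p of 0.05 in either direction (edgeR's quasi-likelihood test, NP+ over NP-), where 0.0125% of 23989 tested genes passed upwards and 0.0167% downwards. At an unadjusted p under 0.05, 7 of 30 members were higher and 8 lower, against 8.01% and 15.4% of all tested genes. limma-voom gave 0 members past the adjusted threshold in either direction, against 0.05% higher and 0.025% lower of all genes, and DESeq2 gave 6 higher and 6 lower, against 4.31% and 10.7% of all genes. The authors' deposited table likewise has 6 higher and 6 lower at its adjusted p under 0.05, against 3.71% and 9.45% of the genes it gives one for. Without the NP- library of MET-106, edgeR gave 3 higher (Sema7a, Sema6b and Sema6d) and 5 lower (Sema3a, Sema3d, Sema3e, Sema3g and Plxna3), against 3.48% and 4.86% of all genes. That fit keeps the NP+ library of the same tumour. Without both libraries of MET-106, 0 members passed in either direction, and 0 of all tested genes did. The edgeR adjusted p was then 0.0920 for Sema7a and 0.105 for Sema6b. Without the NP- library of MET-108, Sema7a and Sema6b alone passed, both higher, against 0.428% higher and 0.671% lower of all genes. With the tumour as a block, 0 passed, against 0.00834% and 0.0542% of all genes. The count at an unadjusted p under 0.05 under the block was 7 higher and 5 lower, against 7.85% and 14.6% of all genes, with Sema3c, Sema3g and Plxnc1 no longer below it. The libraries of the groups did not overlap for 8 members that were higher and 6 that were lower, against 13.3% and 15.6% of all tested genes.

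Direction followed abundance, in the family as in all genes. Of the 18 members that averaged at least 5 CPM, 7 were higher and 2 lower at an unadjusted p under 0.05, against 17.5% and 5.48% of all genes at that level. Of the 12 members under 5 CPM, 0 were higher and 6 lower, against 0.198% and 23.5% of all such genes. The median log2 fold change was 0.28 for the more abundant members, against 0.24 for all genes of that level, and -2.21 for the rarer ones, against -1.46. Over all 30 members it was -0.15, against -0.29 for all tested genes. With upper-quartile and total-count scaling the median of all genes moved to -0.53 and -0.59, and members at an unadjusted p under 0.05 numbered 4 higher and 9 lower, against 3.27% and 19.6% of all genes, and 3 higher and 10 lower, against 2.54% and 21.0%. By limma-voom they were 8 higher and 5 lower, against 9.26% and 7.45%. With no filter on low counts, 5 members higher and 3 lower passed the adjusted threshold, against 1.19% and 1.55% of all genes. With at least 5 CPM in 3 libraries 2 higher and 0 lower did, against 0.169% and 0.815%, and 3 higher and 3 lower had an unadjusted p under 0.05, against 6.44% and 8.75%.

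**Figure D1:**
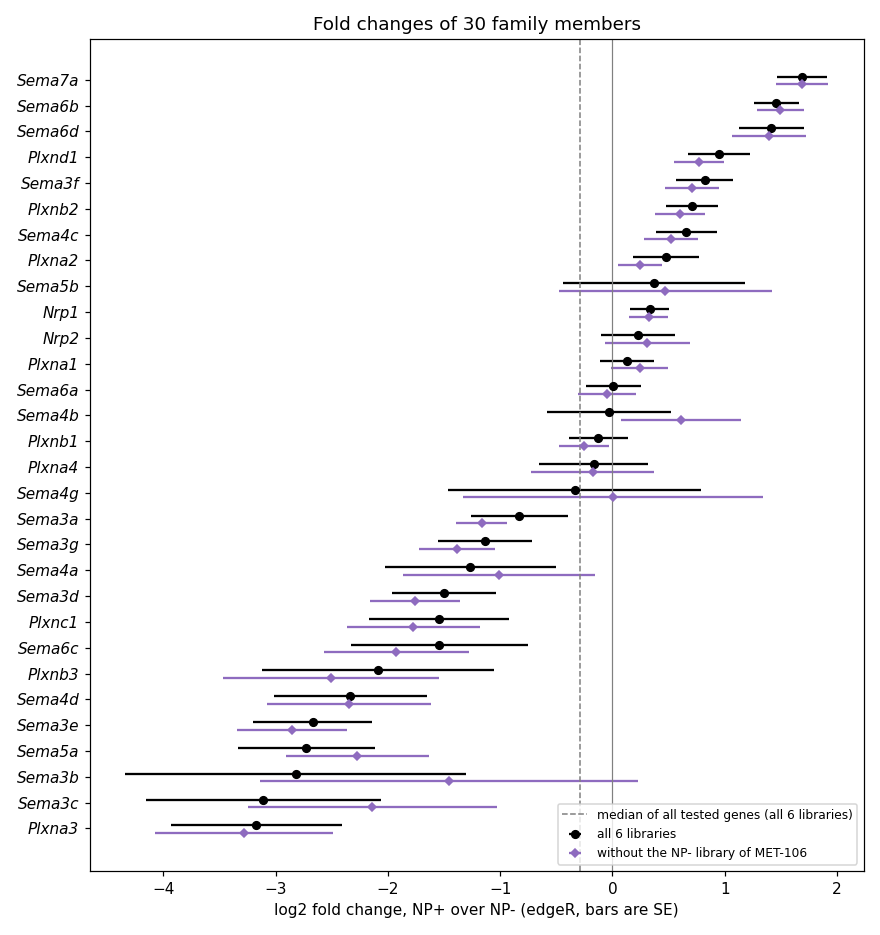
Log2 fold change (NP+ over NP-, horizontal axis) of the 30 members from edgeR, with SE as bars, for all 6 libraries (black circles) and without the NP- library of MET-106 (purple diamonds). The dashed line is the median of all tested genes, -0.29, and Sema7a at 1.69 and Plxna3 at -3.17 stand at the ends.

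Sema7a, the lipid-anchored ligand that binds Plxnc1 and beta-1 integrins, had the smallest p of the family. It stood at 41.5, 53.5 and 44.9 CPM in NP+ and at 13.3, 16.96 and 13.1 CPM in NP-. The groups did not overlap, and NP+ was 3.11, 3.15 and 3.43 times NP- within the tumours. The log2 fold change was 1.69 (SE 0.22, edgeR adjusted p = 0.0600, and 0.0186 without the NP- library of MET-106). The adjusted p ran between 7.39e-09 and 0.393 over 18 other settings, and the authors' deposited table gives 1.77 once its sign is turned, with an adjusted p of 2.08e-08. Plxnc1, its plexin receptor, was rare, at 1.48, 1.55 and 1.03 CPM in NP+ and at 2.28, 2.95 and 6.63 CPM in NP-. Its groups did not overlap, and its log2 fold change was -1.54 (SE 0.62, edgeR adjusted p = 0.188). Per kb it was under the 95th percentile of olfactory receptor genes, a background described below, in 2 NP+ and 2 NP- libraries. Relative to that background its fractions overlapped, at 5.89, 2.02 and 2.32 times in NP+ and 3.43, 0.894 and 2.54 times in NP-. On this scale NP+ was above NP- in MET-106 and MET-107. Itgb1, the beta-1 integrin gene, averaged 2200.2 ± 213 CPM in NP+ and 799.9 ± 418 CPM in NP- (SD, n = 3 each; edgeR adjusted p = 0.122, and 0.0268 without the NP- library of MET-106).

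Class 6 ligands, which span the membrane and bind A-type plexins, made up the largest part of semaphorin transcripts in every library. Sema6b stood at 36.8, 36.0 and 39.8 CPM in NP+ and at 13.3, 14.0 and 13.7 CPM in NP-. The groups lay well apart, with NP+ 2.58 to 2.91 times NP- within tumours and a log2 fold change of 1.46 (SE 0.20, edgeR adjusted p = 0.0600, 0.0188 without the NP- library of MET-106, 8.68e-08 to 0.399 over other settings). Sema6d, a ligand of Plxna1, stood at 318, 285 and 347 CPM in NP+ and at 105.7, 174 and 76.8 CPM in NP-. Its groups did not overlap either, and its log2 fold change was 1.42 (SE 0.29, edgeR adjusted p = 0.0992, and 0.0471 without the NP- library of MET-106). Sema6a, a ligand of Plxna2 and Plxna4, stood at 170, 112 and 146 CPM in NP+ and at 118, 188 and 119 CPM in NP-. Its groups overlapped, its log2 fold change was 0.01 (SE 0.24, edgeR adjusted p = 0.985), and the sign turned under upper-quartile and total-count scaling. Sema6c was rare, with 0.837 ± 0.211 CPM in NP+, against 2.45 ± 1.67 CPM in NP-.

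**Figure D2:**
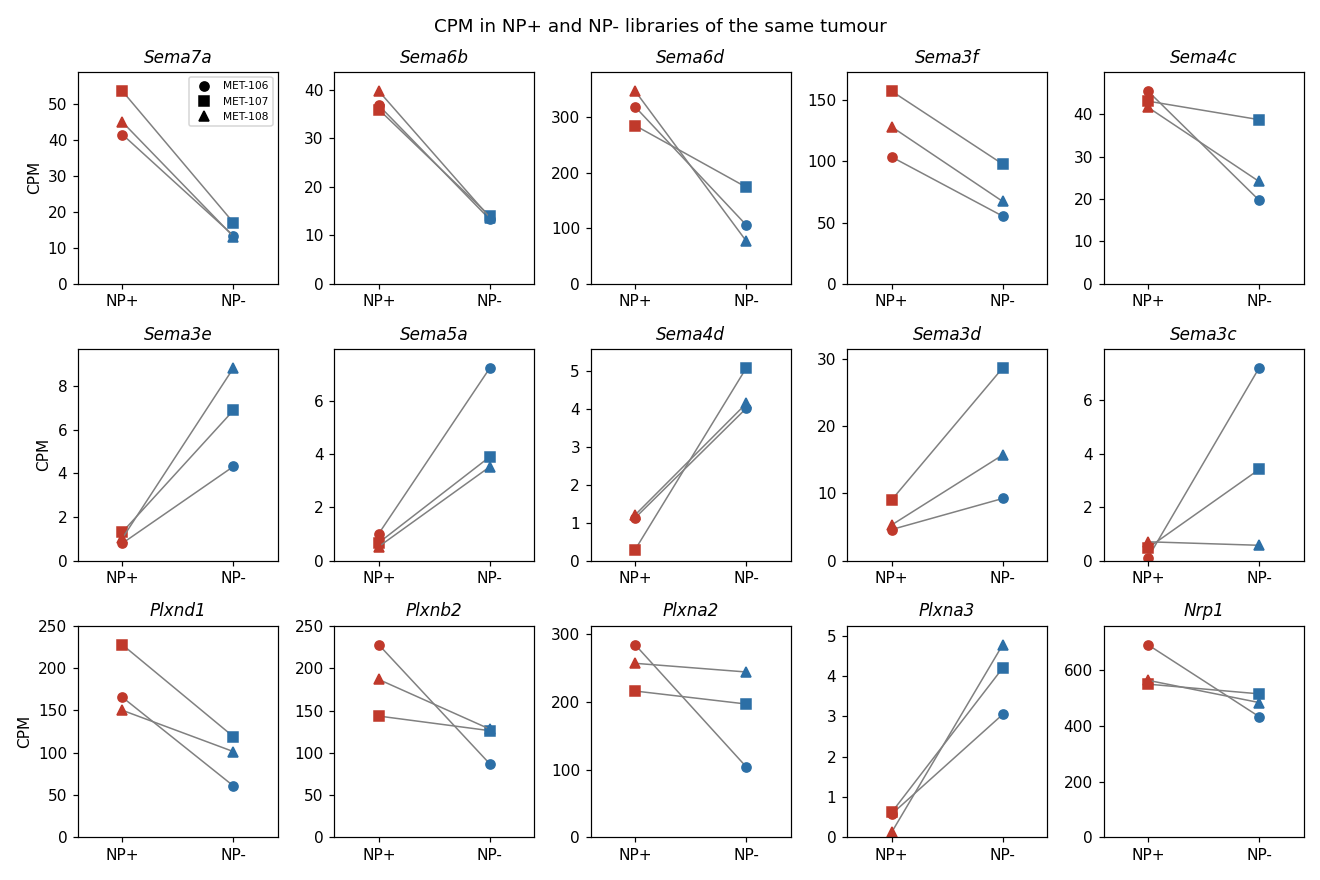
CPM (vertical axes, each from 0) of 15 members in the NP+ (red, left) and NP- (blue, right) library of each tumour, joined by lines. All 3 lines fall towards NP- for Sema7a, Sema6b, Sema6d and Plxnd1 and climb towards NP- for Sema3e, Sema5a, Sema4d and Plxna3, while Sema3c splits by tumour.

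Class 3 ligands, the secreted group, had log2 fold changes of both signs, and 0 of 7 passed the adjusted threshold (edgeR). Sema3f, which acts mainly through Nrp2, stood at 104, 157 and 128 CPM in NP+ and at 55.2, 97.8 and 67.3 CPM in NP-. The groups did not overlap, NP+ was 1.61 to 1.91 times NP- within tumours, and the log2 fold change was 0.82 (SE 0.25, edgeR adjusted p = 0.144). The other 6 class 3 genes all had negative log2 fold changes, and 4 of them (Sema3c, Sema3d, Sema3e and Sema3g) had an unadjusted p under 0.05, against 15.4% of all tested genes that were lower. With the tumour as a block 2 of the 4 kept it, and Sema3c and Sema3g did not. Sema3d stood at 4.61, 9.01 and 5.29 CPM in NP+ and at 9.23, 28.6 and 15.7 CPM in NP- (log2 fold change -1.50, SE 0.47, edgeR adjusted p = 0.144, and 0.0448 without the NP- library of MET-106). Its groups were separated by a narrow gap, with NP- of MET-106 just above NP+ of MET-107. Sema3g stood at 13.4, 9.51 and 10.0 CPM in NP+ and at 12.5, 39.7 and 20.0 CPM in NP- (log2 fold change -1.13, SE 0.42, edgeR adjusted p = 0.170, and 0.0490 without the NP- library of MET-106). Sema3a, the classical Nrp1 ligand, stood at 27.2, 20.9 and 30.5 CPM in NP+ and at 17.6, 68.4 and 53.5 CPM in NP- (log2 fold change -0.83, SE 0.43, edgeR adjusted p = 0.274, and 0.0351 without the NP- library of MET-106). The NP- library of MET-106 lay within the NP+ range for Sema3g and below it for Sema3a, and the other NP- libraries lay above all NP+ libraries for both. In those libraries, of MET-107 and MET-108, lymphatic endothelial markers were also above their NP+ range, and their part in these results was not tested.

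Sema3e and its receptor Plxnd1 stood in opposite directions, though Sema3e lay near the background of counts described below. It was under the 95th percentile of olfactory receptor genes per kb in 3 NP+ and 2 NP- libraries. Relative to that background its fractions overlapped, and the part of the background in its lower NP+ level was not tested. Plxnd1, an endothelial plexin, stood at 165, 227 and 150 CPM in NP+ and at 60.7, 119 and 101 CPM in NP-. Its groups did not overlap, and its log2 fold change was 0.95 (SE 0.28, edgeR adjusted p = 0.135, 0.0112 by DESeq2 and 0.0644 without the NP- library of MET-106). Sema3e stood at 0.796, 1.31 and 1.03 CPM in NP+ and at 4.32, 6.90 and 8.85 CPM in NP- (log2 fold change -2.67, SE 0.53, edgeR adjusted p = 0.0928, and 0.0271 without the NP- library of MET-106). Per length the receptor averaged 63.5 ± 13.8 TPM in NP+, against 37.2 ± 13.4 TPM in NP-, and the ligand 0.288 ± 0.0675 TPM, against 2.09 ± 0.792 TPM. TPM are counts scaled by the exon length in the count files and by the library's total. Sema3c, which can also signal through Plxnd1 with a neuropilin, stood at 0.110, 0.473 and 0.702 CPM in NP+ and at 7.21, 3.41 and 0.572 CPM in NP- (log2 fold change -3.11, SE 1.05, edgeR adjusted p = 0.151). The highest of these libraries is the NP- library of MET-106, the one with the most fibroblast transcripts, and without it the log2 fold change was -2.14 (edgeR adjusted p = 0.204).

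The 250 bases before and 50 after the start of Sema7a, Plxnd1 and Sema3e are shown. Sema7a is the member with the smallest p, and Sema3e and Plxnd1 are a ligand and receptor with log2 fold changes of opposite sign. Sema7a and Plxnc1 had opposite signs too, and both Sema3e and Plxnc1 lay near the background of counts described below. On GRCm38 Sema7a (ENSMUSG00000038264) lies on chromosome 9 from 57940112 to 57962865, plus strand, Plxnd1 (ENSMUSG00000030123) on chromosome 6 from 115954811 to 115995005, minus strand, and Sema3e (ENSMUSG00000063531) on chromosome 5 from 14025276 to 14256689, plus strand. The windows are RefSeq's on GRCm38.p6, a C57BL/6J reference and not Balb/c, at chr9:57939862-57940161 (plus), chr6:115994956-115995255 (minus) and chr5:14025026-14025325 (plus), and each starts 250 bases upstream of the gene start in the count files. Capitals mark matches, on either strand, to GGGCGG (the GC box), ACGTG (the core of hypoxia response elements) and TATAAA (the TATA box).
Sema7a: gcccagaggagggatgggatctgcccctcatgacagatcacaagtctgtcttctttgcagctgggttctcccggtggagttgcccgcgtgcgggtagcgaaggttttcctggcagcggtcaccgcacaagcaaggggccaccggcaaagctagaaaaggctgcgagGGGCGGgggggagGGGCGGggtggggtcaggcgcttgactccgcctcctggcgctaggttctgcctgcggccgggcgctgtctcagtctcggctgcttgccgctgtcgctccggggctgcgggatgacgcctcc
Plxnd1: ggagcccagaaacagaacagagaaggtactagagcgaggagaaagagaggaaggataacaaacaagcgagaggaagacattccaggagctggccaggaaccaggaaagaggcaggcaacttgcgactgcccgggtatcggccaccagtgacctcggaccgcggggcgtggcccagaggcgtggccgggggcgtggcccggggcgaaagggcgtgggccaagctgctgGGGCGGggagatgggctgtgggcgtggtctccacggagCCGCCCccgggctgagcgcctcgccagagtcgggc
Sema3e: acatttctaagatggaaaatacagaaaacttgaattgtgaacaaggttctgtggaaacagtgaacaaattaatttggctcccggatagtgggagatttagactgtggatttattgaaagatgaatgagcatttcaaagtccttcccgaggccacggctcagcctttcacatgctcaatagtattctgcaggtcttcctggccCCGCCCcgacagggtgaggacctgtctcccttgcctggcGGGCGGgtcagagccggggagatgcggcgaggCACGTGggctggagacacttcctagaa
Each window held 2 GC boxes, which 35.7% of 32851 mouse promoter windows of this length hold at least once. Only the Sema3e window among these 3 held ACGTG, in a palindrome read on both strands and counted as 2 overlapping matches, where 19.6% of all windows hold it, and none held TATAAA, which 13.6% of all windows hold. GC content was 67.3% for Sema7a, 67.0% for Plxnd1 and 50.7% for Sema3e, against a median of 52.7% over all windows. Over the 36 windows of 25 members with an entry, 27 held a GC box, 8 held ACGTG and 0 held TATAAA. These matches describe the letters and say nothing of what binds there.

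Class 4 and 5 ligands, which span the membrane, were mostly rare. Sema4c, a ligand of Plxnb2, was the most abundant of them, at 45.4, 43.1 and 41.6 CPM in NP+ and at 19.7, 38.7 and 24.1 CPM in NP-. Its groups did not overlap, but the gap in tumour MET-107 was small, with NP+ 1.11 times NP- (log2 fold change 0.66, SE 0.27, edgeR adjusted p = 0.194). Sema4d, the ligand of Plxnb1, stood at 1.13, 0.291 and 1.20 CPM in NP+ and at 4.01, 5.07 and 4.14 CPM in NP- (log2 fold change -2.34, SE 0.68, edgeR adjusted p = 0.136). Sema5a stood at 1.02, 0.674 and 0.527 CPM in NP+ and at 7.25, 3.91 and 3.53 CPM in NP- (log2 fold change -2.73, SE 0.61, edgeR adjusted p = 0.109). For neither gene did the groups overlap in CPM. Relative to the background of counts described below, the fractions of both genes did overlap. Sema4a, Sema4b, Sema4g and Sema5b had overlapping groups, means between 0.696 and 7.17 CPM in NP+ and between 0.877 and 7.30 CPM in NP-, and adjusted p values between 0.323 and 0.979 (edgeR).

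Of the B-type plexins, Plxnb2 carried the most transcripts per length, and all plexins but Plxnb2, Plxnd1 and Plxna2 averaged under 10 TPM in either fraction. Plxnb2 stood at 228, 144 and 187 CPM in NP+ and at 86.9, 126 and 128 CPM in NP- (log2 fold change 0.71, SE 0.23, edgeR adjusted p = 0.149, and 0.0353 by DESeq2). Its groups did not overlap, though NP+ was only 1.14 times NP- in tumour MET-107. Plxnb1 had 21.1 ± 2.09 CPM in NP+, against 23.0 ± 5.85 CPM in NP- (edgeR adjusted p = 0.778), and Plxnb3 0.658 ± 0.293 CPM, against 2.82 ± 3.59 CPM (edgeR adjusted p = 0.252), and the NP- library of MET-108 alone reached 6.96 CPM for Plxnb3. Plxna2, a receptor of Sema6a, stood at 284, 216 and 257 CPM in NP+ and at 104, 197 and 244 CPM in NP- (log2 fold change 0.47, SE 0.29, edgeR adjusted p = 0.336). The groups overlapped, and most of the gap came from tumour MET-106, where NP+ was 2.73 times NP-, against 1.097 and 1.05 times in MET-107 and MET-108. Plxna3 stood at 0.577, 0.619 and 0.125 CPM in NP+ and at 3.05, 4.20 and 4.78 CPM in NP- (log2 fold change -3.17, SE 0.76, edgeR adjusted p = 0.117, and 0.0486 without the NP- library of MET-106). Relative to the background of counts described below, the fractions of Plxna3 overlapped. Plxna1 and Plxna4 had overlapping groups, with log2 fold changes of 0.13 (SE 0.24) and -0.17 (SE 0.48).

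Nrp1 was the most abundant gene of the family per length, and neither neuropilin passed the test. Nrp1 stood at 690, 549 and 563 CPM in NP+ and at 433, 514 and 483 CPM in NP- (log2 fold change 0.33, SE 0.17, edgeR adjusted p = 0.272). Its groups did not overlap, but within tumours NP+ was 1.59, 1.07 and 1.16 times NP-. Nrp2 stood at 251, 178 and 187 CPM in NP+ and at 182, 252 and 93.4 CPM in NP- (log2 fold change 0.23, SE 0.33, edgeR adjusted p = 0.681), with overlapping groups and a sign that turned with upper-quartile and total-count scaling. Nrp2 made up 23.1%, 21.2% and 21.5% of neuropilin TPM in NP+ and 25.7%, 28.8% and 13.8% in NP-.

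Levels per length set the order of members within each fraction. Nrp1 led at 158 ± 22.7 TPM in NP+ and 140.1 ± 19.3 TPM in NP-. Among plexins Plxnb2 (67.2 ± 16.1 and 46.1 ± 11.7 TPM), Plxnd1 (63.5 ± 13.8 and 37.2 ± 13.4 TPM) and Plxna2 (37.7 ± 5.62 and 30.7 ± 13.2 TPM) came first in both, and the ranges of Plxnb2 and Plxnd1 overlapped. Among semaphorins Sema6d came first in NP+, at 77.0 ± 7.88 TPM, followed by Sema3f at 63.9 ± 12.4, Sema6a at 41.7 ± 9.10 and Sema7a at 36.2 ± 4.38 TPM. The ranges of Sema6d and Sema3f overlapped, with Sema3f (76.8 TPM) above Sema6d (68.4 TPM) in MET-107, as did those of Sema6a and Sema7a. In NP- the order was Sema6a at 46.5 ± 14.6, Sema3f at 40.8 ± 13.8 and Sema6d at 32.4 ± 14.4 TPM, with overlapping ranges, while Sema7a was sixth at 12.6 ± 2.31 TPM. Summed over 19 genes, semaphorins stood at 286, 284 and 295 TPM in NP+ and at 159, 291 and 178 TPM in NP-.

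**Figure D3:**
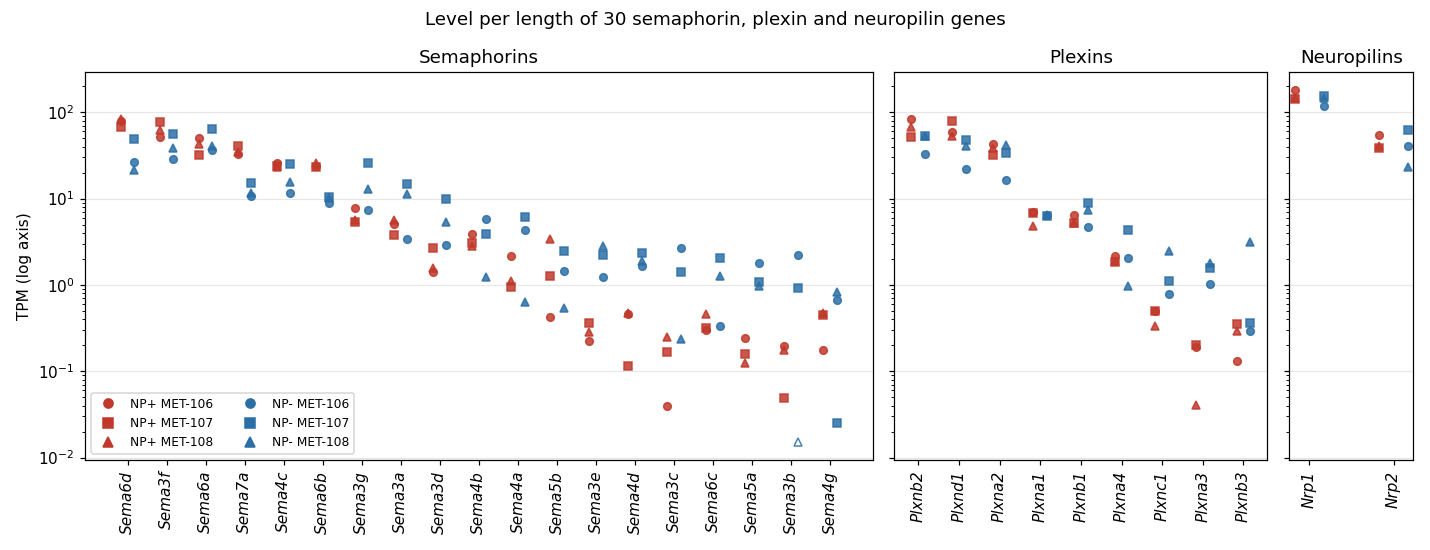
TPM (log axis) of the 30 members in each library, ordered by mean within semaphorins, plexins and neuropilins, with NP+ in red to the left of NP- in blue and 1 marker shape per tumour. An open symbol at the bottom marks Sema3b, which was at 0 in the NP- library of MET-108, and the rare members to the right lie mostly lower in NP+.

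Shares of semaphorin transcripts do not depend on the scaling between libraries. Sema6d made up 27.5%, 24.1% and 28.4% of semaphorin TPM in NP+ and 16.9%, 16.7% and 12.1% in NP-. Sema7a made up 11.5%, 14.5% and 11.8% in NP+ and 6.84%, 5.23% and 6.60% in NP-, and Sema6b 8.43%, 8.07% and 8.65% in NP+ and 5.64%, 3.57% and 5.72% in NP-. For all 3 the fractions did not overlap. Sema6a had the lower share in NP+, with 17.7%, 11.4% and 14.3% in NP+ and 22.8%, 21.7% and 22.6% in NP-. A share also falls where other members rise, and in CPM the groups of Sema6a overlapped (log2 fold change 0.01). Sema3g made up 1.87% to 2.69% in NP+ and 4.65% to 8.90% in NP-. Sema3f and Sema4c took shares that overlapped between the fractions, at 22.2 ± 4.5% and 8.41 ± 0.587% in NP+ and 19.5 ± 1.83% and 8.18 ± 0.817% in NP-. Among plexins, Plxnb1 took 3.08 ± 0.0892% of plexin TPM in NP+ and 5.22 ± 0.546% in NP-, without overlap. In CPM its groups overlapped (log2 fold change -0.13). Plxnd1 took 34.9 ± 8.45% and 27.5 ± 2.80%, with overlapping fractions and its highest share, 44.6%, in NP+ of MET-107.

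**Figure D4:**
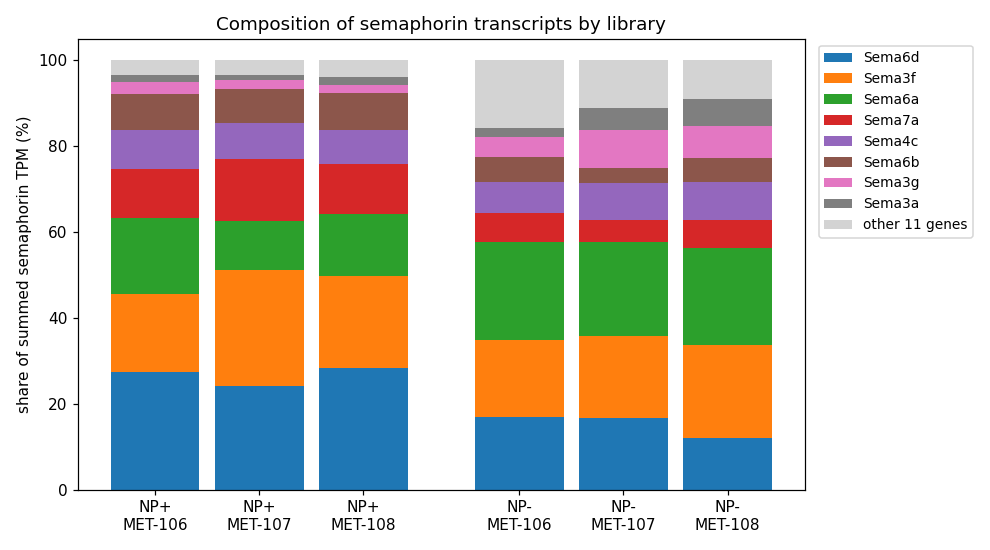
Share of summed semaphorin TPM (vertical axis, %) taken by the 8 most abundant semaphorins and by the other 11 together, per library, with the 3 NP+ libraries on the left. Sema6d takes 24.1% to 28.4% in NP+ and 12.1% to 16.9% in NP-.

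Rare members lay near a background of counts that differed between the fractions. Olfactory receptor genes (1106 genes), which endothelial cells are not known to use as a class, held 0.0321, 0.0977 and 0.0566 CPM per kb in NP+ and 0.0848, 0.421 and 0.333 CPM per kb in NP-, so the NP- mean was 4.5 times the NP+ mean. In at least 1 NP- library 14 of 30 members were under the 95th percentile of olfactory receptor genes per kb, and the other 16 were above it in every library. The share of all tested genes under that percentile was not computed. By CPM, 12 of 30 members averaged under 5, against 13164 of 23989 tested genes. Set against the mean olfactory receptor density of the same library, Sema3e stood at 2.67, 1.45 and 1.96 times it in NP+ and at 5.495, 1.76 and 2.86 times it in NP-. Plxna3 stood at 2.28, 0.804 and 0.281 times that density in NP+ and at 4.57, 1.26 and 1.82 times in NP-, and Sema5a at 2.93, 0.638 and 0.862 times and at 7.91, 0.858 and 0.981 times. Sema4d stood at 5.44, 0.462 and 3.30 times in NP+ and at 7.34, 1.87 and 1.93 times in NP-, so on this scale the fractions overlapped for all 4 genes. Within tumours NP+ was below NP- in 3 of 3 for Sema3e, Plxna3 and Sema5a, and in 2 of 3 for Sema4d, Sema3b and Sema3c. The rest of the 14 went the other way. NP+ was above NP- in 3 of 3 for Plxna4 and Sema4b. It was above in 2 of 3 for Plxnc1, Plxnb3, Sema4a, Sema4g, Sema5b and Sema6c. Sema3c and Sema3b stood highest in the NP- library of MET-106, at 11.9 and 9.80 times, and at no more than 1.74 and 2.33 times in any other library. Sema7a, Sema6b, Sema6d and Plxnd1 were above the 95th percentile in all 6 libraries. The part of this background in the lower NP+ levels of the rare members was not tested. All 30 members passed the filter on low counts, and Plxna3, Sema3b and Sema3c did so with fewer than 3 NP+ libraries above its cutoff.

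**Figure D5:**
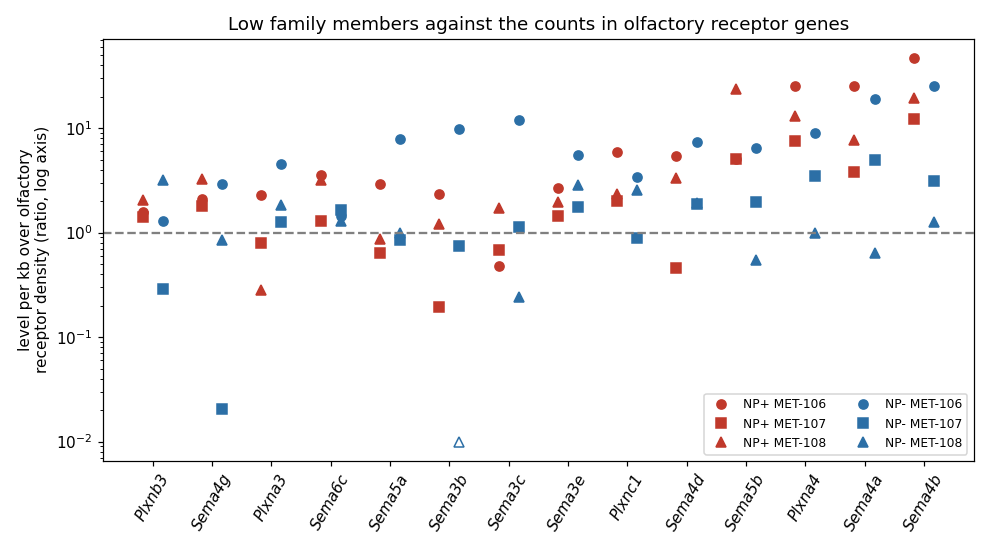
Level per kb divided by the mean level per kb of olfactory receptor genes in the same library (log axis, 1 dashed), for the 14 members under the 95th percentile of those genes in at least 1 NP- library. NP+ (red) and NP- (blue) intermix, and Sema3c, Sema3b, Sema5a, Sema4d, Sema3e and Plxna3 are highest in the NP- library of MET-106 (circle). The open symbol marks Sema3b at 0 in the NP- library of MET-108.

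Genes that work with semaphorin receptors were read from the same fit. Of these 57 (11 co-receptors, 39 effectors inside the cell and 7 proteases that act on semaphorins or related ligands), 0 passed the adjusted threshold in either direction (edgeR). At an unadjusted p under 0.05, 16 were higher and 4 lower, against 8.01% and 15.4% of all tested genes. Among genes averaging at least 5 CPM these shares were 17.5% and 5.48%. DESeq2 gave 8 higher and 3 lower at its adjusted p, against 4.31% and 10.7% of all genes, and limma-voom gave 0 in either direction, against 0.05% and 0.025%. Without the NP- library of MET-106 edgeR gave 7 higher and 0 lower, against 3.48% and 4.86%. Without both libraries of that tumour it gave 0 in either direction. On the log2 scale the median of the 57 was 0.35, where all tested genes had -0.29 and those averaging at least 5 CPM had 0.24.

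Mmp14, a membrane protease known in human cancer cells to release Sema4d from the surface, had the smallest p of these genes. It stood at 279, 374 and 308 CPM in NP+ and at 141, 55.0 and 63.8 CPM in NP- (log2 fold change 1.88, SE 0.35, edgeR adjusted p = 0.0887, and 0.00732 without the NP- library of MET-106). Erbb2, a receptor tyrosine kinase that couples to B-type plexins, had 39.6 ± 3.70 CPM in NP+, against 12.9 ± 6.64 CPM in NP- (edgeR adjusted p = 0.120, and 0.03596 without the NP- library of MET-106). Rras, a small GTPase that plexins switch off, had 126 ± 15.4 CPM in NP+, against 48.3 ± 26.2 CPM in NP- (edgeR adjusted p = 0.122, and 0.00939 without the NP- library of MET-106). Flt1, a VEGF receptor that is also on the endothelial marker list, had 1243 ± 181 CPM in NP+, against 529 ± 232 CPM in NP- (edgeR adjusted p = 0.126). In each of these genes and in Itgb1, all picked for their small p, the fractions did not overlap. Of all 57 partner genes, 20 were higher and 5 lower without overlap, against 13.3% and 15.6% of all tested genes. Pcsk5, a proprotein convertase, ran the other way, at 1.56, 3.93 and 1.61 CPM in NP+ and at 18.7, 18.5 and 5.42 CPM in NP- (log2 fold change -2.58, SE 0.60, edgeR adjusted p = 0.113).

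Counting itself limits some members. The library kit does not mark strand, and 6 members share exon bases with another annotated gene. The largest overlaps were 10.7% of Plxna1's exon bases with the opposite-strand gene Gm26811 and 7.27% of Sema4c's with the opposite-strand gene D430040D24Rik, so levels of those 2 members are uncertain by an unknown part. The remaining 4 (Nrp1, Plxna4, Plxnb1 and Sema4a) shared between 0.780% and 2.68% of their exon bases.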

How the data were processed

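The 6 libraries were made with SMART-Seq v4 and read as 150 bp pairs, per the labels' protocols. The submitters' processing notes name the aligner STAR 2.5.2b, the trimmer Trimmomatic 0.036, the counter featureCounts (from Subread 1.5.2), the test DESeq2 and the build GRCm38 (mm10). Which annotation was used, and how strand and multi-mapped reads were handled, is not given in the sources used here. The files deposited by the authors hold whole-number counts per gene. The authors' deposited table adds a signal per library (the count over a size factor), log2 fold changes of NP- over NP+ (turned here), p-values and adjusted p-values. All its 156426 signal values gave whole reads within 0.01 reads equal to the deposited counts (100%), and the count test on these reads, over 26071 genes, called 3 genes higher and 4 lower.

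Counts were tested with edgeR 4.0.16 (quasi-likelihood, TMM, filterByExpr with minimum count 10, 23989 genes, Benjamini-Hochberg) in R 4.3.3, without a block. SE is the log2 fold change over the root of F. Alternatives used limma 3.58.1, DESeq2 1.42.0, 3 scalings, 2 filters, the tumour block, and each library or tumour left out. Same-numbered libraries share a tumour, per the labels, and their deviations correlated at 0.28, 0.21 and 0.02. P values rest on the spread between 3 tumours. The test was tried on simulated counts with known changes. TPM and shares were computed from counts and exon lengths. Counts carry no molecular identifiers.

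Members and gene lists were chosen with earlier results of these data known. Values per library are given for members with an unadjusted p under 0.05, the 3 highest semaphorins and plexins by TPM, both neuropilins and Sema3a, added after its value was seen; partner genes are those with the smallest p.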

Additional observations from a re-analysis of the deposited data

How the results depend on the processing

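Among 336 refits of 19 named members under 18 other settings, 293 kept direction and side of the threshold, 31 kept direction and passed it, and 12 changed sign. The adjusted counts of the family (0 higher, 0 lower) became 6 and 6 by DESeq2, 5 and 3 with no low-count filter, and 2 higher with at least 5 CPM in 3 libraries. They ran from 0 to 3 higher and from 0 to 5 lower as libraries or tumours were left out, where 0 to 968 and 0 to 1352 of all tested genes passed. At an unadjusted p under 0.05, the 7 higher members (8.01% of all genes) became 4 with upper-quartile scaling (3.27%). They became 3 with total counts (2.54%) and 3 with the 5 CPM filter (6.44%). With libraries or tumours left out they were 6 to 7, where 1092 to 3431 of all genes were higher, out of 23079 to 29164 tested. The 8 lower members (15.4%) became 5 with the tumour as a replicate block (14.6%), 5 by limma-voom (7.45%) and 3 with the 5 CPM filter (8.75%). With libraries or tumours left out they were 5 to 10, where 1803 to 6217 of all genes were lower. The block changed no adjusted call.

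Of the partner genes, 8 higher and 3 lower passed by DESeq2 (against 4.31% and 10.7% of all genes). With no low-count filter 5 and 1 did (against 1.19% and 1.55%). As libraries or tumours were left out 0 to 7 and 0 to 1 did, against 0 to 968 and 0 to 1352 of all genes. At an unadjusted p under 0.05, the 16 higher (8.01% of all genes) became 7 with upper-quartile scaling (3.27%) and 5 with total counts (2.54%). They became 6 with the 5 CPM filter (6.44%) and 9 to 23 with libraries or tumours left out (1092 to 3431 of all genes). The 4 lower (15.4%) became 7 with total counts (21.0%) and 1 to 7 with libraries or tumours left out (1803 to 6217 of all genes). Nrp2 turned to -0.0115 with upper-quartile scaling, -0.0913 with total counts, -0.0603 with the 5 CPM filter and -0.05 without the NP- library of MET-108. Sema6a turned to -0.25, -0.31 and -0.28 under the first 3 of these. Leave-one-out log2 fold changes ran from -0.05 to 0.67 for Nrp2 and from -0.0742 to 0.41 for Sema6a. The cause of these shifts was not tested. The reads recovered from the deposited table, a setting chosen after seeing the data, kept the family counts at 0, 0, 7 and 8.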
